A study of Solanum lycopersicum with 28 samples.

Results

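The H3K4ac and H3K4me3 peak lists record where lysine 4 of histone H3 was acetylated and where it was trimethylated in tomato leaf chromatin. All deposited peaks of both lists on the 12 chromosomes were taken, 112206 for H3K4ac and 43977 for H3K4me3, that is 156183 of the 3381748 peaks that the 28 lists of the series held there. The series mapped 27 targets, RNA polymerase II (Pol2) and 26 histone modifications, by chromatin immunoprecipitation and sequencing (ChIP-seq), together with an Input of chromatin that met no antibody. All libraries came from leaves of wild-type plants of the cultivar M82 (Solanum lycopersicum), 4 weeks old, kept at 24 °C with 16 h of light. Per the labels each mark had 1 library, made from 10 ng of DNA and read for 75 bp from 1 end, and the antibodies against the marks came from different suppliers. The comparisons below are therefore between lists, with no measure of the variation between plants, and no test was run.

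The amino group of a lysine can carry an acetyl group or methyl groups, not both at the same time, so that H3K4ac and H3K4me3 compete for the same residue of the same histone tail. A nucleosome holds a pair of H3 tails, and a leaf holds many cells, so peaks of both marks can cover the same sequence without sharing a tail. In plants as in other eukaryotes, H3K4me3 is laid down at the 5′ end of transcribed genes by SET-domain methyltransferases of the Trithorax group, H3K4me1 lies along gene bodies, and H3K9me2 marks silent transposons of constitutive heterochromatin. H3K4ac is less studied and is best known from the promoters of active genes in budding yeast.

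The lists covered nearly equal amounts of sequence with peaks of a different shape. H3K4ac peaks covered 39.6 Mb and H3K4me3 peaks 39.7 Mb, or 4.94% and 4.95% of the 802 Mb spanned by the chromosomes. H3K4ac reached this with many narrow peaks (median width 251 bp, widest 3424 bp) and H3K4me3 with fewer and broader peaks (median 873 bp, widest 4633 bp). The median fold enrichment, that is the pileup of reads over that of the surroundings, was 2.48 for H3K4ac and 3.99 for H3K4me3. At a q-value under 0.05, the false discovery rate given by the peak caller, 50.3% of the H3K4ac peaks and 92.6% of the H3K4me3 peaks remained. Read totals were not in the lists, but the pileup under each summit could be solved from the deposited fold and p-value. Its median was 12 reads against a background of 3.94 for H3K4ac, and 99 reads against 23 for H3K4me3. The H3K4ac library thus had far fewer reads behind a typical peak, and its part in the differences below was not tested.

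The first question was how often acetylation and trimethylation of the same residue were found on the same sequence. They overlapped widely, and the share depended on which list was counted. Of the H3K4ac peaks, 36350 shared at least 1 bp with an H3K4me3 peak, which is 32.4% (95% Wilson interval 32.1% to 32.7%, which covers counting error only, as do all intervals here). Of the H3K4me3 peaks, 30812 shared sequence with an H3K4ac peak, 70.1% (69.6% to 70.5%). The remaining 75856 H3K4ac peaks and 13165 H3K4me3 peaks are called H3K4ac-only and H3K4me3-only. Measured in sequence in place of peaks, the overlap was even, since the 18.1 Mb in both lists made up 45.8% of the H3K4ac sequence and 45.7% of the H3K4me3 sequence. The share of shared H3K4ac peaks ran from 26.8% on chromosome 12 to 42.7% on chromosome 2. That of H3K4me3 peaks ran from 66.9% on chromosome 6 to 72.4% on chromosome 10. The second exceeded the first on every chromosome. The counts of shared peaks were close and the H3K4ac list was the longer on each chromosome, so list length largely sets this order. In bins of 150 bp, 120889 were in both marks, 143043 in H3K4ac alone and 144091 in H3K4me3 alone, out of 5346321. The log2 odds ratio of the marks was 4.86, and it lay between 4.77 (chromosome 6) and 5.0 (chromosome 12) on the single chromosomes.

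Where the marks met, H3K4ac mostly lay within H3K4me3. Of the shared H3K4ac peaks, 26605 (73.2%) were wholly inside H3K4me3, whereas 1848 shared H3K4me3 peaks (6.0%) were wholly inside H3K4ac. H3K4ac covered a median of 56.6% of a shared H3K4me3 peak. A single H3K4me3 peak often held several H3K4ac peaks: 5095 overlapped 2 or more, against 678 H3K4ac peaks over 2 or more of H3K4me3. The extreme case was an H3K4me3 peak at chr3:56637174-56640723 (M82 genome version 1, as are all positions here), 3550 bp wide, that overlapped 6 H3K4ac peaks covering 59.5% of it. In the other direction, an H3K4ac peak of 1687 bp at chr6:29306726-29308412 overlapped 4 H3K4me3 peaks. Few peaks were close to the limit of 1 bp. Overlaps of 1 to 50 bp were found for 683 H3K4ac peaks (median width 232 bp, fold 2.27), and 621 others missed H3K4me3 by less than 50 bp (230 bp, fold 2.3). The same counts for H3K4me3 were 513 (242 bp, fold 2.02) and 443 (242 bp, fold 2.12).

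Shared peaks were the broad and strong ones of both lists. Shared H3K4ac peaks had a median width of 484 bp, against 216 bp for H3K4ac-only, a ratio of 2.24. For H3K4me3 the medians were 1084 bp and 276 bp, a ratio of 3.93. Peaks of 1 kb or more made up 9.25% of shared H3K4ac and 0.502% of H3K4ac-only peaks, and 57.2% of shared H3K4me3 and 9.12% of H3K4me3-only peaks. The median fold was 3.17 in shared H3K4ac, 2.32 in H3K4ac-only, 5.10 in shared H3K4me3 and 2.12 in H3K4me3-only peaks. A q-value under 0.05 was reached by 79.6% of shared H3K4ac peaks but 36.2% of H3K4ac-only peaks. The same shares were 96.9% for shared H3K4me3 and 82.6% for H3K4me3-only peaks. Most H3K4me3-only peaks thus passed that limit, whereas most H3K4ac-only peaks did not.

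Overlap was more frequent among strong peaks. Among H3K4ac peaks ranked into deciles by p-value, 9.38% of the weakest decile overlapped H3K4me3. The share stayed between 8.34% and 35.3% through the first 8 deciles, then reached 72.1% in the ninth and 98.9% in the strongest. H3K4me3 went without such a step from 30.8% to 98.5%. Almost every strong site of either mark therefore lay on sequence that also carried the other. By width, both lists gave close shares from 500 bp upwards, 77.7% of H3K4ac and 76.0% of H3K4me3 peaks at 500 to 1000 bp. Below 200 bp the shares were 11.8% and 28%. At a q-value under 0.05 in the query list, 51.3% of H3K4ac peaks overlapped any deposited H3K4me3 peak and 73.3% of H3K4me3 peaks any H3K4ac peak. With the 10000 peaks of the lowest p-value from each list, the shares were 57.6% and 57.5%, which lists of equal length with mostly single overlaps bring close to each other by construction. The median width of shared H3K4ac peaks was then 0.897 times that of the others. When peaks in contact with an Input peak were left out of both lists at once, the shares were 9.37% and 43.7%. Such contact anywhere in the peak was found for 64.2% of shared H3K4ac and 26.5% of H3K4ac-only peaks, and for 78.6% of shared H3K4me3 and 45.6% of H3K4me3-only peaks. Wider peaks have more room for it. At the position of the highest pileup alone, the shares were 25.8%, 10.4%, 31.4% and 20.6% in that order. The Input list held 344406 peaks of a median width of 118 bp, and 1.8% of them had a q-value under 0.05.

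**Figure D1:**
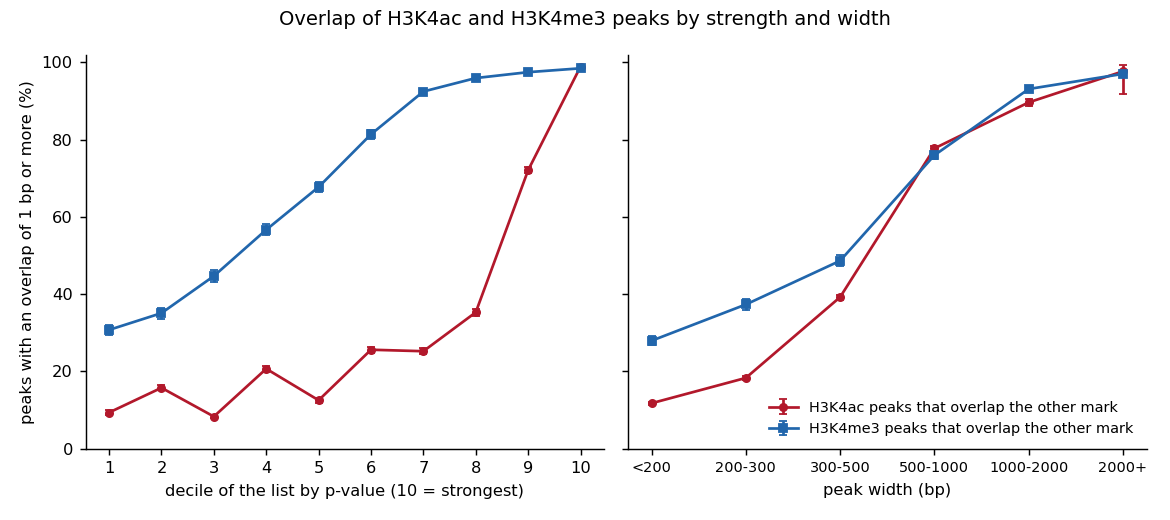
Share of H3K4ac peaks (red) and H3K4me3 peaks (blue) that overlapped the other mark by 1 bp or more, on the left by decile of the list ranked by p-value and on the right by peak width in bp, with 95% Wilson intervals as bars. H3K4ac stayed at or below 35.3% in its first 8 deciles and reached 98.9% in the strongest, while H3K4me3 went from 30.8% to 98.5%.

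The finer arrangement was read from 24694 pairs in which 1 H3K4ac peak met 1 H3K4me3 peak and neither met another. Their summits, the positions of the highest pileup, lay a median of 81 bp apart (quartiles 34 and 190 bp). Of the pairs, 68.8% had summits within 150 bp, the extension size in the peak calling settings of the study. H3K4me3 was the wider of the pair in 86.0% of cases, with median widths of 1047 and 562.5 bp. Across these pairs the widths had a Spearman rho of 0.56 and the folds of 0.57, a description of sites that share their sequence and local background. Strong sites of one mark thus tended to be strong sites of the other.

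H3K4me1, the gene-body mark, flanked 13047 of the pairs on 1 side only within 1500 bp of the H3K4me3 summit, and was used to give each pair a direction without gene models. Offsets from the H3K4me3 summit were counted as positive towards H3K4me1. The median H3K4ac summit lay at -12 bp, and 44.8% (44.0% to 45.7%) lay on the H3K4me1 side. Both marks of lysine 4 were thus centred on nearly the same position. Pol2 stood apart, with a median summit offset of -222 bp, away from H3K4me1, and 7.03% of them on the H3K4me1 side. H3K23me3, a euchromatic methylation in the classes of the study, lay on the other side (66.1% towards H3K4me1, median 38 bp). Input summits at the same pairs were spread to both sides (53.6%, median 16 bp).

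The second question was which other marks accompanied acetylation and trimethylation when each was found alone. For this, the base at each summit was looked up in the other 25 target lists. Shared sites looked alike from either list: H3K27ac lay at 92.8% of shared H3K4ac and 96.9% of shared H3K4me3 summits, H4K20ac at 87.6% and 93.0%, H3K9ac at 75.4% and 79.1%, H3K14ac at 65.4% and 71.2%, and Pol2 at 51.3% and 52.3%. Acetylations of H3 and H4 tails are marks of open and active chromatin. H3K36me3, a mark of transcribed gene bodies, lay at 40.4% and 45.0%, and H3K23me3 at 52.8% and 58.5%. H3K9me2 was found at 2 of 36350 shared H3K4ac summits and at 1 of 30812 shared H3K4me3 summits.

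Exclusive sites of the 2 marks differed from shared sites and from each other. H3K4me3-only sites had the methylated company of lysine 4, whereas H3K4ac-only sites did not. H3K4me2 lay at 81.6% of H3K4me3-only summits (80.9% to 82.2%) and at 11.6% of H3K4ac-only summits (11.4% to 11.8%), the largest of the 25 differences. Shared H3K4ac and shared H3K4me3 summits had H3K4me2 at 78.1% and 80.2%. In H3K4me2, H3K4me3-only sites were thus like shared sites, and H3K4ac-only sites stood apart. H3K4me1 lay at 42.7% of H3K4me3-only and at 6.59% of H3K4ac-only summits. On single chromosomes H3K4me2 ran from 75.7% to 85.2% at the former and from 9.40% to 14.7% at the latter, so the groups of 12 values did not overlap. Over the whole genome H3K4me2 occupied 10.7% of the bins and H3K4me1 10.8%, and at Input summits they were found at 22.7% and 15.4%. H3K4ac-only summits thus met H3K4me1 and H3K4me2 less often than Input summits did.

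Among active marks, most were more frequent at H3K4me3-only than at H3K4ac-only summits. H4K20ac was found at 51.0% against 10.8%, H3K27ac at 64.1% against 27.8%, H3K9ac at 37.0% against 16.1% and H3K36me3 at 21.1% against 14.8%. For these marks in that order, Input summits gave 14.8%, 22.4%, 15.0% and 22.6%. H3K4ac-only summits were thus below Input summits in H4K20ac and H3K36me3, near them in H3K9ac and above them in H3K27ac. Of the 12 other acetylations, H3K14ac alone was more frequent at H3K4ac-only than at H3K4me3-only summits, at 23.9% against 18%, with 13.7% at Input summits. This difference of 5.88 percentage points was seen on 10 of 12 chromosomes. It reversed to -12.4 percentage points when a shared peak had to be covered by the other mark for at least 50% of its width. With the 10000 strongest peaks of each list, H3K9ac and H3K27ac turned as well, to differences of 1.51 and 0.21 percentage points, and H3K9ac reached 26.5 with a pileup above 36. H3K23me3 was rare at both H3K4me3-only and H3K4ac-only summits, 9.08% against 4.95%, with 9.93% at Input summits. Pol2 lay at 25.4% of H3K4me3-only and 16.2% of H3K4ac-only summits, the latter near the 15.0% of Input summits. It was more frequent at H3K4me3-only than at H3K4ac-only summits on 12 of 12 chromosomes. That order was lost with peaks of a q-value under 0.05 from both lists, where Pol2 was 1.53 percentage points more frequent at H3K4ac-only summits.

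The silent marks were divided between the groups. H3K27me3, the mark of Polycomb repression, lay at 41.8% of H3K4me3-only and 22.8% of H3K4ac-only summits, with 35.2% and 34.9% at shared H3K4ac and H3K4me3 summits and 16.7% at Input summits. H3K4me3-only summits exceeded shared H3K4me3 summits in H3K27me3 on 12 of 12 chromosomes. Among peaks of 200 to 300 bp this order was turned, with H3K27me3 at 38.9% of H3K4me3-only and 55.2% of shared H3K4me3 summits. It was also turned at 300 to 500 bp (47.6% and 54.0%). It held at 500 to 1000 bp (49.6% and 39.6%) and at 1000 to 2000 bp (40.8% and 26.4%). At 34.6% of H3K4me3-only summits H3K4me2 and H3K27me3 were both found. The share was close at shared H3K4ac (30.4%) and shared H3K4me3 summits (31.2%), and was 4.63% at H3K4ac-only summits. The 6 lists that the study assigned to constitutive heterochromatin were all more frequent at H3K4ac-only summits. H3K9me2 was found at 31.2% of H3K4ac-only and 0.448% of H3K4me3-only summits, and H3K56me1 at 33.8% and 7.56%. For H3K9me2 the Input summits gave 30.2% and the genome bins 42.9%. For H3K56me1 they gave 33.8% and 34.6%, so that H3K4ac-only peaks met these marks about as often as Input peaks, and H3K4me3-only peaks far less often. H3K56me1 peaks were themselves weak, with 0.00496% under a q-value of 0.05, against 49.2% of H3K9me2 peaks. With partner peaks under that limit alone, the differences were 0.012 percentage points for H3K56me1 and 21.9 for H3K9me2. With the 10000 strongest peaks of each list they were -0.094 and 0.047. In all, 7 of the 25 targets were more frequent at H3K4ac-only and 18 at H3K4me3-only summits.

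**Figure D2:**
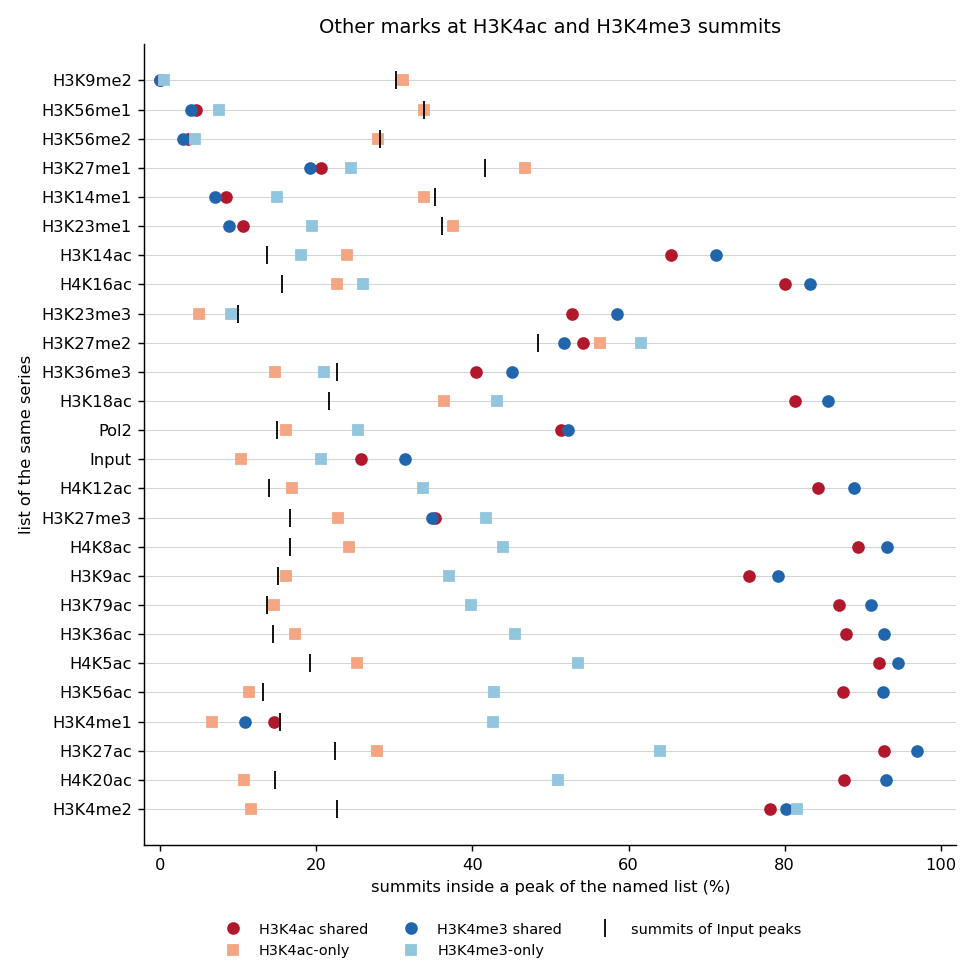
Share of summits (horizontal axis, %) that lay inside a peak of each other list of the series, for shared H3K4ac (dark red), H3K4ac-only (light red), shared H3K4me3 (dark blue) and H3K4me3-only peaks (light blue), with black ticks for summits of Input peaks. H3K4me2 lay at 81.6% of H3K4me3-only but 11.6% of H3K4ac-only summits, and H3K9me2 at 0.448% and 31.2%.

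Shared and exclusive sites also differed in how many acetylations met at a site. All 12 other acetylations were found together at 51.6% of shared H3K4ac and 59.0% of shared H3K4me3 summits. They were found at 2.03% of H3K4ac-only and 4.36% of H3K4me3-only summits. None of the 12 was found at 55.1% of H3K4ac-only summits, compared with 16.3% of H3K4me3-only, 0.459% of shared H3K4ac and 0.211% of shared H3K4me3 summits. The share depended on peak strength, as no other acetylation was found at 37.2% of the H3K4ac-only summits with a q-value under 0.05 and at 65.3% of the others. At 52.8% of H3K4ac-only summits there was at least 1 constitutive heterochromatin mark and no other acetylation. The same was found at 5.87% of H3K4me3-only, 0.283% of shared H3K4ac and 0.140% of shared H3K4me3 summits. These heterochromatin lists each covered between 32.6% (H3K56me2) and 42.9% (H3K9me2) of the genome bins, and the share at Input summits was not computed. Apart from H3K9me2, none of these lists had more than 0.0125% of its peaks under a q-value of 0.05.

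**Figure D3:**
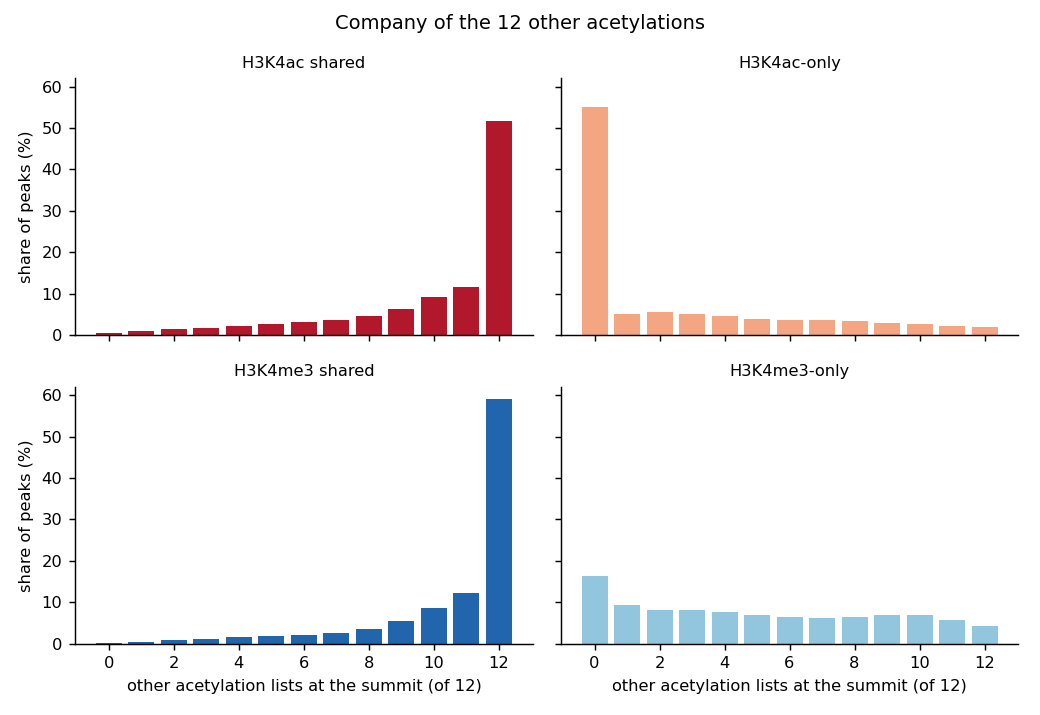
Number of the 12 other acetylation lists with a peak at the summit (horizontal axis) against the share of peaks (vertical axis, %), in 4 panels for shared H3K4ac, H3K4ac-only, shared H3K4me3 and H3K4me3-only peaks. Shared peaks gathered at 12 acetylations (51.6% and 59.0%), H3K4ac-only peaks at 0 (55.1%), and H3K4me3-only peaks were spread over the range with 16.3% at 0.

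Among peaks of the same width, some contrasts were found again and others were lost or turned. Among peaks of 500 to 1000 bp, H3K4me2 lay at 69.4% of 14140 shared H3K4ac and 21.3% of 4050 H3K4ac-only summits. In the same width range H3K14ac lay at 70.5% of 7521 shared H3K4me3 and 18.6% of 2380 H3K4me3-only summits, and H3K4me1 at 12.5% and 32.6%. Broad H3K4me3-only peaks of 1000 to 2000 bp, 1125 in number, held H3K4me2 at 95.5% of summits and H3K14ac at 14.9%, against 79.8% and 80.1% in shared H3K4me3 peaks of that width. Pol2 did not keep its order, since it lay at 23.3% of H3K4ac-only and 23.2% of H3K4me3-only summits at 300 to 500 bp, at 40.8% and 22.2% at 500 to 1000 bp, and at 57.0% and 23.8% at 1000 to 2000 bp. In the widest of these classes H3K27ac (95.3% against 80.2%) and H3K36ac (78.1% against 64.4%) were also more frequent at H3K4ac-only summits. H3K9me2 was rarer at the wider H3K4ac-only peaks, from 32.4% at 200 to 300 bp through 4.37% at 500 to 1000 bp to 0 of 379 at 1000 to 2000 bp. For the last, a limit of 3 counts, which is not a Wilson bound, allows a share of up to 0.792%.

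H3K4ac-only and H3K4me3-only peaks also differed in where they lay relative to the other mark. Most H3K4me3-only peaks lay near an H3K4ac peak. Their median distance to the nearest H3K4ac peak was 955 bp, 51.6% were within 1 kb and 98.5% within 10 kb. Of all H3K4me3-only peaks, 37.2% lay within 1 kb of a shared H3K4me3 peak and 27.3% were over 5 kb from any. H3K4ac-only peaks had a median distance of 13967 bp to the nearest H3K4me3 peak, 13.8% were within 1 kb and 31.0% were over 50 kb away. The H3K4ac list held more peaks, so distances to it and distances to H3K4me3 are not on an equal footing.

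The company of H3K4ac-only peaks followed that distance. At less than 500 bp from H3K4me3, H3K27me3 lay at 48.0% of H3K4ac-only summits, H3K9ac at 38.9%, H3K4me2 at 37.1%, Pol2 at 36.7% and H3K9me2 at 0.0991%. Pol2 and H3K9ac were still at 36.2% and 33.5% between 2 and 5 kb, whereas H3K4me2 was at 20.3% between 500 and 1000 bp. Beyond 50 kb, Pol2 lay at 0.187%, H3K9ac at 0.306%, H3K27me3 at 3.83% and H3K9me2 at 57.8%. H3K4ac-only peaks were therefore not a uniform group. The 23644 that lay in H3K9me2 had a median width of 196 bp, 23.9% passed a q-value of 0.05, and 99.7% held no other acetylation. The other 52212 had a median width of 227 bp, 41.8% passed, and 34.9% held no other acetylation.

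**Figure D4:**
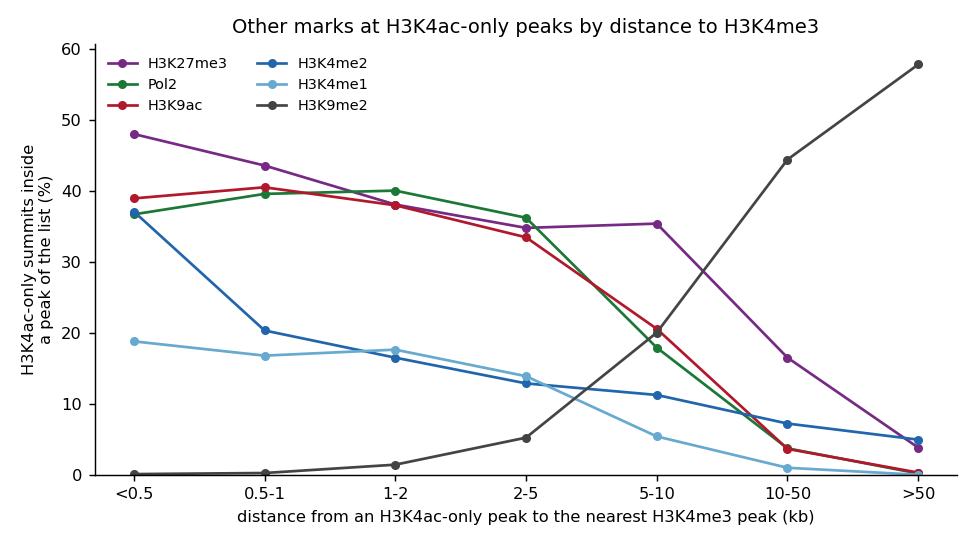
Share of H3K4ac-only summits inside a peak of 6 other lists (vertical axis, %), by the distance to the nearest H3K4me3 peak (horizontal axis, kb). H3K27me3 went from 48.0% below 0.5 kb to 3.83% beyond 50 kb, while H3K9me2 went from 0.0991% to 57.8%.

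Strong peaks of each mark without the other were rare and were of a different kind. In the strongest decile of each list by p-value, 123 of 11220 H3K4ac peaks had no H3K4me3 and 68 of 4397 H3K4me3 peaks had no H3K4ac. These sets were singled out after their values were seen. At the 123 strong H3K4ac-only summits, Pol2 lay at 95.9% (90.8% to 98.3%), H3K14ac at 90.2% and H4K5ac at 97.6%, while H3K4me2 lay at 7.32% (3.90% to 13.3%), H3K36me3 at 2.44% and H3K23me3 at 2.44%. Strong shared H3K4ac peaks had Pol2 at 85.2%, but H3K4me2 at 62.3%, H3K36me3 at 73.4% and H3K23me3 at 93.2%. At the 68 strong H3K4me3-only summits, H3K4me2 lay at 97.1% (89.9% to 99.2%), H3K23me3 at 83.8%, H3K36me3 at 73.5% and Pol2 at 36.8% (26.3% to 48.6%). H3K14ac lay at 57.4% and H3K18ac at 47.1% of these. Strong shared H3K4me3 peaks had H3K4me2 at 78.1%, but H3K23me3 at 97.3%, H3K36me3 at 83.4% and Pol2 at 71.7%. They had H3K14ac at 98.3% and H3K18ac at 96.4%. In both exclusive sets H3K23me3, H3K36me3 and H3K14ac were thus less frequent than at strong shared peaks of the same list. Both exclusive sets were still rich in acetylation. Between these sets, Pol2 was more frequent at the 123 H3K4ac-only summits, and H3K4me2, H3K23me3 and H3K36me3 at the 68 H3K4me3-only summits. The sets were of unlike strength, as the peak caller's −log10 p-value began at 12.96 in the H3K4ac decile and at 132 in the H3K4me3 decile. Over all exclusive peaks Pol2 had the opposite order, 16.2% at H3K4ac-only and 25.4% at H3K4me3-only summits.

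Single peaks at the extremes shared these traits in part. The H3K4ac-only peak of the highest fold (7.68, 695 bp, chr10:55630593-55631287) was 4404 bp from the nearest H3K4me3 peak, and its summit held Pol2 and all 12 other acetylations but none of H3K4me1, H3K4me2, H3K36me3 and H3K23me3. The widest H3K4ac-only peak (2246 bp, chr4:17967727-17969972, fold 2.89) was 53073 bp from H3K4me3 and held Pol2, 10 other acetylations, H3K23me3, H3K27me2 and H3K27me3. The H3K4me3-only peak of the highest fold (24.3, 564 bp, chr4:7640296-7640859) had the highest fold of the whole H3K4me3 list. It was 17534 bp from the nearest H3K4ac peak, and its summit held all 12 other acetylations and H3K4me2 but no Pol2. The widest H3K4me3-only peak (3393 bp, chr6:51161923-51165315) was 581 bp from H3K4ac and held H3K4me2 and 11 acetylations, but neither Pol2, H3K23me3 nor H3K36me3. Among shared peaks the highest folds were 17.8 for H3K4ac (chr4:40334807-40335382, 576 bp, wholly inside H3K4me3) and 20.9 for H3K4me3 (chr7:5391615-5392091, 477 bp). The widest were 3424 bp for H3K4ac (chr8:65201165-65204588) and 4633 bp for H3K4me3 (chr8:53912064-53916696), the latter over 3 H3K4ac peaks. All 4 shared peaks held Pol2 and all 12 acetylations at the summit.

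The third question was how the marks were placed along the chromosomes. H3K4me3, alone or shared, and shared H3K4ac were concentrated at the chromosome ends, and H3K4ac-only peaks were not. In the outer 10% at each end, H3K4me3-only peaks numbered 40.3 per Mb, against 10.5 per Mb in the central 80%, a log2 ratio of 1.95. The log2 ratio was 1.93 for shared H3K4me3, 1.88 for shared H3K4ac and 0.10 for H3K4ac-only peaks, and 0.45 for Input peaks. On the single chromosomes it ran from 0.0093 to 0.25 for H3K4ac-only peaks. For H3K4me3-only peaks it ran from 0.18 on chromosome 2 to 2.81 on chromosome 12, with 1.31 as the next lowest after chromosome 2, so only chromosome 2 came within the H3K4ac-only range. H3K4ac-only peaks over 1 kb from H3K4me3 had a log2 ratio of -0.19, and those of a q-value under 0.05 had 0.47. With the 10000 strongest peaks of each list, where an exclusive peak may still overlap a weaker one, it was 2.97.

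The overlap of the marks changed along the chromosomes on the acetylated side. The share of H3K4ac peaks with H3K4me3 was 50.8% in the first twentieth of the chromosomes, between 11.3% and 13.3% from the fifth to the twelfth, and 58.1% in the last. The share of H3K4me3 peaks with H3K4ac stayed between 67.7% and 81.6% throughout. The H3K4me3 share was highest in the interior, at 74.2% to 81.6% from the fifth to the ninth twentieth. It was 70.4% in the first and 71.1% in the last. Most interior H3K4ac peaks, by contrast, stood without H3K4me3.

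**Figure D5:**
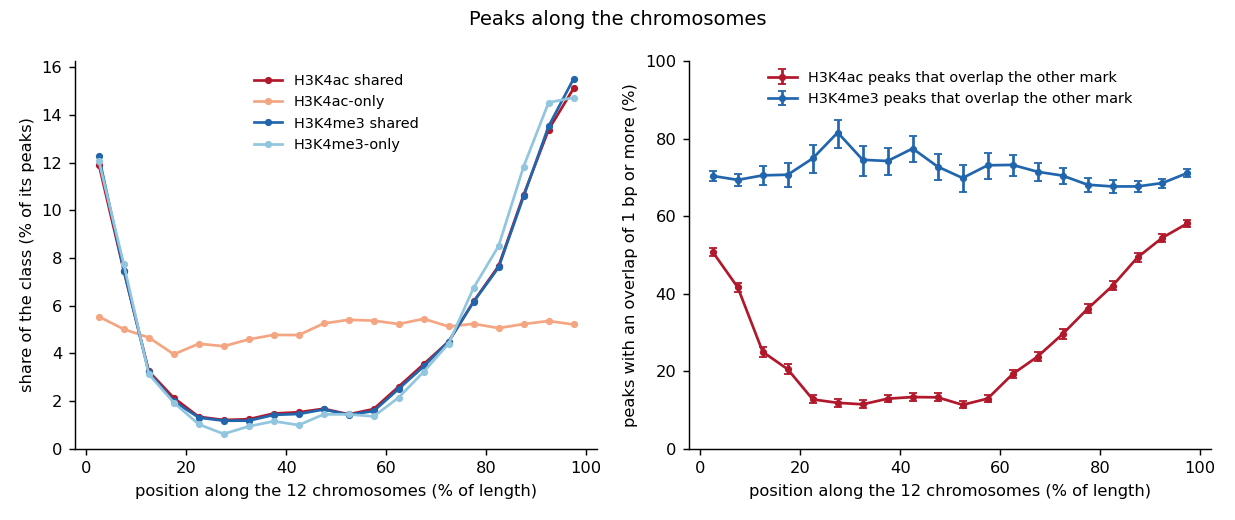
Position along the chromosomes (horizontal axis, % of length, 12 chromosomes pooled in 20 parts) against the share of each group of peaks (left, %) and against the share of peaks that overlapped the other mark (right, %, with 95% Wilson intervals). H3K4ac-only peaks were spread evenly, the other groups gathered at the ends, and the share of H3K4ac peaks with H3K4me3 went from 50.8% through 11.3% to 58.1% while that of H3K4me3 stayed between 67.7% and 81.6%.

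Counted over bins in place of summits, 11 of the 12 other methylations went more with the same mark as in the comparison of exclusive summits. H3K27me2 was the exception, with a log2 odds ratio of 0.86 for both marks, higher with H3K4me3 on 4 of 12 chromosomes. The log2 odds ratio of H3K4me2 was 3.10 with H3K4ac and 6.04 with H3K4me3, and that of H3K4me1 was -0.12 and 2.01. For H3K9me2 it was -2.40 with H3K4ac and -10.70 with H3K4me3, so both marks were depleted in H3K9me2, and H3K4me3 more so. Among the acetylations, H3K56ac had 5.61 with H3K4ac and 7.20 with H3K4me3. H3K18ac (4.58 with H3K4ac, 4.06 with H3K4me3) and H3K14ac (4.34 and 3.97) were the 2 acetylations that went more with H3K4ac. The lists differ in depth and in peak format, which was narrow for both marks and for the acetylations named in this paragraph, and broad for H3K4me2 and H3K9me2, and the part of either in these values was not tested. In bulk leaf chromatin, a mark in fewer cells and a weaker mark in all cells cannot be told apart.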

How the data were processed

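ChIP-seq of M82 leaves was analysed from the deposited peak lists, with 1 library per mark per the labels. Per the methods of the study and the submitters' processing notes, the authors trimmed reads with Trimmomatic 0.38 and aligned them to M82 genome version 1 with Bowtie2 2.3.5. They removed duplicates and poorly placed alignments (SAMtools 1.9 is listed among the tools). Peaks were called with MACS2 2.2.7.1 at a p-value of 0.05, with an extension size of 150 bp among the stated settings. The narrowest peaks were 160 bp wide for H3K4ac and 125 bp for H3K4me3. The deposited columns give for each peak a fold enrichment (the ratio of pileup to local background), the −log10 p-value and the −log10 q-value, and for narrow lists the offset of the summit. For broad lists the fold and p-values are averages over the peak. The methods describe biological replicates, and whether lists without a replicate tag (Pol2, H3K4me1, H3K9ac, H3K36me3 and H3K9me2) pool them, and whether a list was called against the Input, are not given in the sources used here.

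Overlaps, gaps, summits and bins were computed with Python 3.11.15, NumPy 2.4.6, pandas 2.3.3 and SciPy 1.17.1, and the interval functions were tested on simulated data. Peaks on chloroplast, mitochondrial and unplaced sequences stayed outside all comparisons. Chromosome length was the largest peak end in any list, and odds ratios had 0.5 added to each cell. The pileup was solved from fold and p-value for the 43965 H3K4me3 peaks with a −log10 p-value under 200 and for all H3K4ac peaks, and was a whole number within 0.02 for 100% of them. Intervals are 95% Wilson intervals. Named peaks were the highest fold and the widest of each of the 4 groups and the 1 peak of each list over the most peaks of the other. Named lists were Pol2, H3K4me1, H3K4me2, H3K9ac, H3K14ac, H3K23me3, H3K27ac, H3K36me3, H3K27me3, H3K9me2 and Input, plus those with the largest differences in either direction. H3K18ac, H3K56ac and H4K5ac, and the strong exclusive peaks, were named after their values were seen. The marks, lists and comparisons were chosen with earlier results of these data known. The alternatives were other peak limits, overlap limits, bin and zone sizes, and leaving out peaks that touch the Input. No genome sequence or gene annotation of this build was used here, so peaks are given without genes and without sequence.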

Additional observations from a re-analysis of the deposited data

How the results depend on the processing

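No paired analysis was possible because each mark had 1 library, so that the shared replicate number pairs nothing, and no replicate could be left out. Values are given in the order of the share of H3K4ac peaks with H3K4me3, the share of H3K4me3 peaks with H3K4ac, the log2 odds ratio, the width ratios of shared to exclusive H3K4ac and H3K4me3 peaks, the log2 terminal to central ratio of H3K4ac-only peaks, and the number of targets more frequent at H3K4ac-only summits, where an alternative moved them. As reported they were 32.4%, 70.1%, 4.86, 2.24, 3.93, 0.10 and 7. The number of targets is given wherever it differed from 7. A q-value under 0.05 gave 50.4%, 63.8%, 5.74, 2.95 (H3K4me3), 0.48 and 10. Partner peaks of a q-value under 0.05 gave a number of targets of 6. The 10000 strongest peaks of each list gave 57.6%, 57.5%, 6.77, 0.897 (a turned direction), 1.03, 2.97 and 14. Leaving out peaks that touch the Input gave 9.37%, 43.7%, 4.69, 1.82, 3.17, 0.25 and 8. An overlap of 150 bp gave 29.8%, 64.6%, 2.38 (H3K4ac) and 4.34 (H3K4me3), and cover of 50% gave 29.6%, 42.8%, 1.60 (H3K4me3) and 6. A fold above 1.5 moved only the H3K4me3 share, to 71.0%. The terminal ratio of H3K4ac-only peaks was -0.19 for those over 1 kb from H3K4me3 and 0.0035 with zones of 20%. That of H3K4me3-only peaks stayed within the spread between chromosomes in each alternative run.

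Other alternatives were chosen after seeing the data. A q-value under 0.05 in the query list alone gave 51.3%, 73.3%, 3.37 (H3K4me3), 0.47 and 10. The pileup above 36 that the study used for its chromatin states, which kept 8849 H3K4ac and 32720 H3K4me3 peaks, gave 96.7%, 26.0%, 9.69, 1.95, 1.28, 2.74 and 11. Query peaks 200 to 300 bp wide gave shares of 18.3% and 37.3%, and 9 targets more frequent at H3K4ac-only summits. Which mark overlapped the other more often thus turned under the pileup limit, where the H3K4ac list was the shorter.

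Of 156 recomputed differences of named lists (H3K4ac-only minus H3K4me3-only summits, percentage points), 141 kept their sign, and that of the Input was fixed at 0 by leaving out peaks that touch it. A kept sign includes differences that nearly vanished. With partner peaks of a q-value under 0.05, H3K56me1 went from 26.2 to 0.012. With the strongest 10000, H3K9me2 went from 30.7 to 0.047 and H4K20ac from -40.2 to -0.64. Pol2 changed sign to 1.53 and 0.12 at a q-value under 0.05 in both lists and in the query, to 30.7 with the strongest 10000 and to 56.6 with the pileup limit. The strongest 10000 also turned H3K4me1 to 0.31, H3K9ac to 1.51, H3K27ac to 0.21 and H3K56me1 to -0.094. The pileup limit turned H3K9ac to 26.5, H3K56me1 to -4.31 and H3K9me2 to -0.021. H3K14ac turned to -12.4 under cover of 50%, and H3K23me3 to 3.31 without Input contact and to 0.96 in the width class. The cause was not tested, and exclusive peaks under these limits may overlap peaks that the limit removed. Depth is known only as solved pileup.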

Other observations

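Outside the chromosomes neither mark covered more sequence than the Input. H3K4ac peaks covered 29.5% of the chloroplast sequence and H3K4me3 peaks 33.3%, against 36% for Input peaks. On the mitochondrial sequence the values were 10.6%, 15.5% and 32.3%. On unplaced sequences H3K4ac had 121 peaks over 0.700% and H3K4me3 had 2 peaks over 0.0055%, against 345 Input peaks over 1.04%. Among these sequences, the highest H3K4ac fold was 14.5, on unplaced sequence, where the highest Input fold was 18.1.

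H3K4me3-only peaks over 10 kb from any H3K4ac peak were few. Between 10 and 50 kb there were 184, with H3K4me1 at 54.9% and H3K4me2 at 69.0% of their summits, and beyond 50 kb there were 9. The labels give the same catalogue number for the H4K12ac and H4K20ac antibodies, whose lists nevertheless differed at H3K4me3-only summits (33.6% and 51.0%) and at H3K4ac-only summits (16.8% and 10.8%).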
